A study of Homo sapiens with 6 samples.

Results

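The 10 genes described here encode RING, PCGF and PHC subunits of Polycomb Repressive Complex 1 (PRC1). They were taken by symbol (RING1, RNF2, BMI1, PCGF2, PCGF3, PCGF5, PCGF6, PHC1, PHC2 and PHC3) from a table of counts for 57133 gene symbols, and all 10 symbols are in it. RNA was sequenced from 6 libraries of T98G cells, an established human glioblastoma line. All 6 were grown from cells that had lost CBX8 through Cas9 and the sgCBX8 guide. The 3 CBX8 KO libraries came from knockout cells carrying the empty TetO-FUW lentiviral vector. The 3 WT CBX8 re-expression libraries came from the same knockout line carrying V5-tagged CBX8 in that vector. All cells in both conditions had been made stable with an rtTA vector under puromycin and hygromycin selection, and every library followed 72 h of doxycycline, 1 μg/ml by the labels. The label field for genotype reads wild type for the re-expression libraries, but their titles and the study's methods describe CBX8 put back into the knockout line, and this was followed. Whether the knockout line is a single clone, and whether libraries of a condition are separate cultures, is not given in the sources used here. Each p-value therefore measures spread between libraries, which may be technical. No library was made from cells that had kept their own CBX8, so the comparison is between an empty vector and CBX8 expressed from a vector.

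PRC1 places ubiquitin on histone H2A (the H2AK119ub mark) and compacts chromatin at repressed genes. RING1 and RNF2 (also called RING1B) are alternative catalytic subunits, and each pairs with a PCGF protein that decides which complex is formed. Canonical PRC1 holds BMI1 (PCGF4) or PCGF2 (MEL18) with a CBX protein such as CBX8 and a PHC protein, whose SAM domain can link complexes together. The variant complexes around PCGF3, PCGF5 and PCGF6 carry RYBP or YAF2 in place of CBX and PHC.

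Before the values, the sequences bear on which of these genes the counts can tell apart. RING1 with RNF2, and BMI1 with PCGF2, are paralog pairs that fill the same place in the complex. Only these pairs were aligned, and the PHC genes were not. The most alike 150 bases of their aligned coding sequences are given here from hg38 with the exons of GENCODE release 44, 5′ to 3′ on the coding strand. Capitals mark bases that differ from the paralog.
RING1: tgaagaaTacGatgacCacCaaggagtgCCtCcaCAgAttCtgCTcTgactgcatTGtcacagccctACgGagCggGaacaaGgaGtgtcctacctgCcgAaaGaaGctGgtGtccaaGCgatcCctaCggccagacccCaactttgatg
RNF2: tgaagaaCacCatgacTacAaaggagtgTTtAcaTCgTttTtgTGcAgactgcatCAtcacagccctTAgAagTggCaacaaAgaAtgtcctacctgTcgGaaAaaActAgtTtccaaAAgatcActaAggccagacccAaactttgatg
BMI1: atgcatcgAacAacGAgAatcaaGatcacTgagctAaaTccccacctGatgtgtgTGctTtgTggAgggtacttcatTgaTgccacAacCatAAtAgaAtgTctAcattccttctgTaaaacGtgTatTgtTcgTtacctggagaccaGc
PCGF2: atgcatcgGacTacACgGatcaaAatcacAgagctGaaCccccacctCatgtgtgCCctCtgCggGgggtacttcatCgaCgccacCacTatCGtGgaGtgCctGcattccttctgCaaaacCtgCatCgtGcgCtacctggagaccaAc

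Even in these stretches RING1 and RNF2 differ at 34 of 150 bases and BMI1 and PCGF2 at 32 of 150. The RING1 stretch covers coding bases 164 to 313 (chr6:33209711-33209988, plus strand, coding exons 2 and 3) and the RNF2 stretch coding bases 173 to 322 (chr1:185091664-185093134, plus strand, coding exons 2 and 3). The BMI1 stretch covers coding bases 1 to 150 (chr10:22326450-22326927, plus strand, coding exons 1 and 2) and the PCGF2 stretch the same bases of its own coding sequence (chr17:38739645-38740402, minus strand, coding exons 1 and 2). Over the whole aligned coding sequences, identity was 67.0% for RING1 and RNF2 and 64.6% for BMI1 and PCGF2. The longest run of bases shared anywhere in a pair was 12 for RING1 with RNF2 and 14 for BMI1 with PCGF2. No 100-base stretch of coding sequence is therefore shared exactly within a pair.

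A second kind of copy touches 2 of the genes. hg38 holds alternate contigs, which repeat some chromosomal regions as further haplotypes. All 1048 of the 100-base windows that lie inside single exons of the canonical RING1 transcript recur exactly on alternate contigs of chromosome 6. Of the 5 contigs with a match, 3 hold every window. All 1709 such windows of PCGF2 recur on 1 alternate contig of chromosome 17. A read from RING1 or PCGF2 inside an exon can therefore have more than 1 exact position in the full hg38 assembly. PCGF6 has 11.8% of its windows on an alternate contig and on chromosome 19, BMI1 has 2.06% on chromosome X, and PCGF3 has 0.559% on another chromosome. RNF2, PCGF5, PHC1, PHC2 and PHC3 have every window on their own chromosome alone. Whether the alternate contigs were part of the alignment index, and how reads with several positions were counted, is not given in the sources used here.

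Total counts lay between 7950190 and 8659796 per library. CBX8, which checks the labels, had 83 to 104 counts in the CBX8 KO libraries and 27791 to 31408 in the re-expression libraries, where vector and endogenous transcripts are not separated. Symbols with at least 1 count numbered 21475 to 21674 in CBX8 KO and 22208 to 22428 upon re-expression, 2 ranges that do not overlap. Mitochondrial transcripts took 6.85 to 7.96% of counts in CBX8 KO and 5.96 to 6.99% upon re-expression. The part of these differences in the results was not tested. Of 8 markers of glioma and mesenchymal lines, VIM, CD44 and FN1 had at least 4288 counts in every library, GFAP and OLIG2 had 13 to 38 and were highest upon re-expression without overlap, NES had 0 to 4, and SOX2 and S100B were at 0. Between conditions, CD44 was lower upon re-expression (log2 fold change -0.21, edgeR adjusted p = 0.0097) and FN1 higher (0.22, edgeR adjusted p = 0.0031), while GFAP (0.68, edgeR adjusted p = 0.13) and OLIG2 (0.85, edgeR adjusted p = 0.056) did not pass. The part of these markers in the results was not tested. No marker of 7 for other cell types passed 8 counts. Fewer cells of a kind and less RNA per cell cannot be told apart in these bulk samples.

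**Figure D1:**
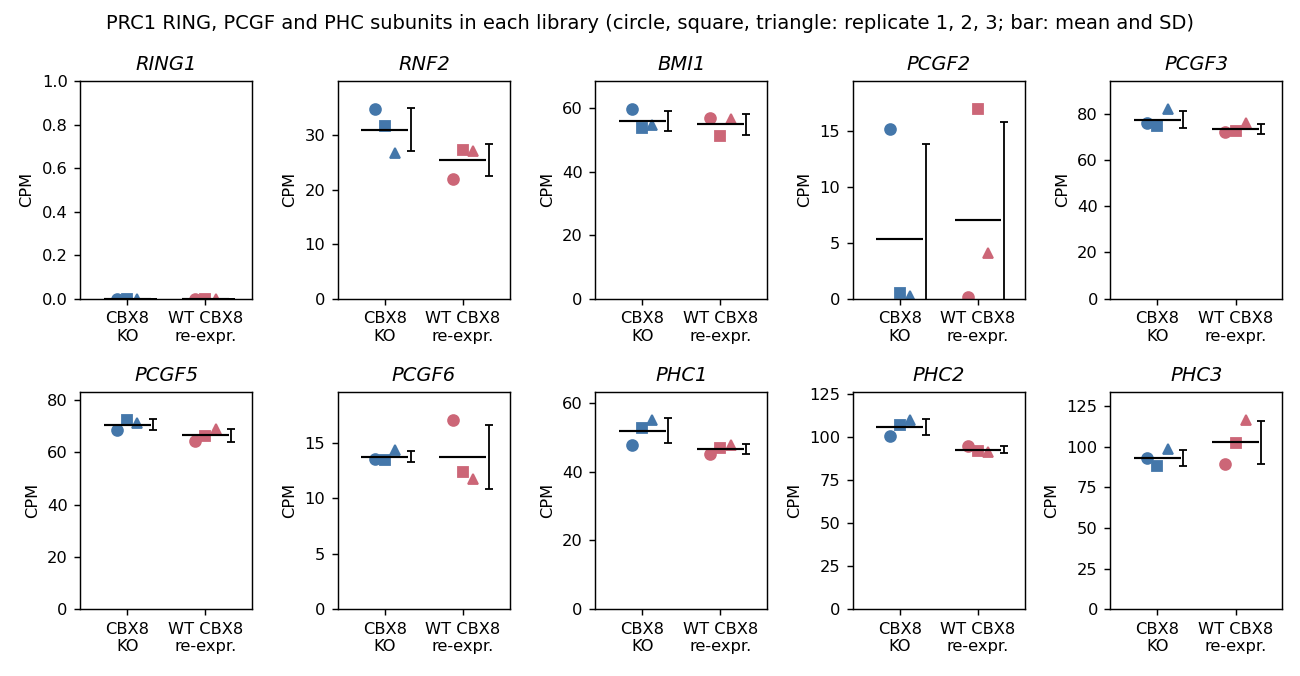
CPM (counts scaled by library size times TMM factor, y axis from 0) of the 10 subunits in each library. CBX8 KO is in blue and WT CBX8 re-expression in red, with the mean and SD of 3 libraries. The SD bars of PCGF2 are drawn from 0 upwards only. PHC1 (by a narrow gap) and PHC2 lie lower in all 3 re-expression libraries, PCGF2 scatters within both conditions, and RING1 is at 0 throughout.

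The question of the comparison is whether putting CBX8 back into knockout cells goes with a change in the RNA of these PRC1 subunits. Among them, PCGF3, PCGF5 and PCGF6 belong to variant complexes, which carry RYBP or YAF2 in place of CBX8. Of the 10 genes, 9 passed the filter on low counts and were tested, and RING1 did not. At an adjusted p under 0.05 in edgeR's quasi-likelihood test, PHC2 was lower upon re-expression, 0 genes were higher and 8 did not pass. That is 1 of 9, beside 12.9% of all 14461 genes tested that passed in either direction (6.63% lower and 6.23% higher), so the share is near the background. PHC1, by a narrow gap, and PHC2 were the 2 of 9 whose conditions did not overlap in CPM, beside 28.9% of all genes. At an unadjusted p under 0.05, 3 of the 9 passed (PHC2, RNF2 and PHC1), beside 25.3% of all genes. DESeq2 called 0 of them. Leaving out 1 library gave 1 higher call in 2 of the 6 fits, for PCGF2 without CBX8 KO replicate 1 and for PHC3 without re-expression replicate 1. The median log2 fold change (WT CBX8 re-expression over CBX8 KO) of the 9 was -0.08, beside 0.0049 over all genes tested. Of the 9, 7 were below 0, beside 7064 of all 14461. Those 7 include BMI1 and PCGF6, whose signs turned in some fits that left out 1 library.

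**Figure D2:**
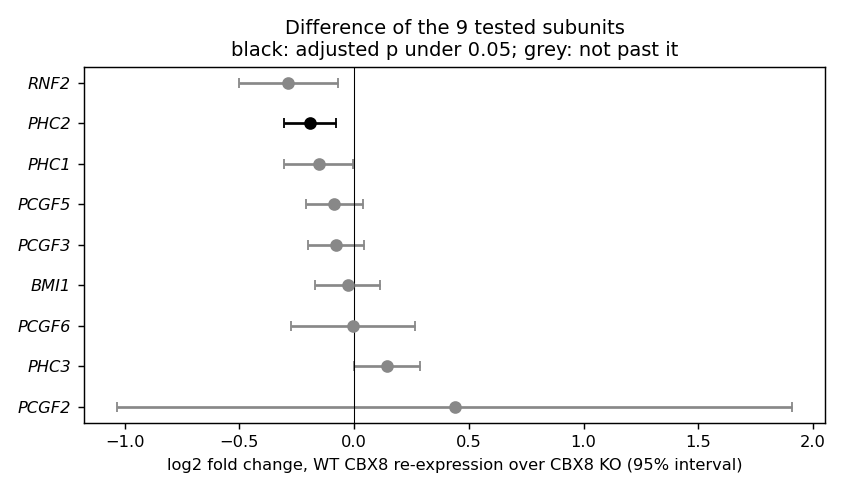
Log2 fold change of the 9 tested subunits (x axis) with its 95% interval, WT CBX8 re-expression over CBX8 KO. The interval of PHC2 runs from -0.30 to -0.08 and is the one with an adjusted p under 0.05, while that of PCGF2 runs from -1.03 to 1.91.

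Of the catalytic subunits, RNF2 was measured and RING1 was not. RNF2 (ENSG00000121481.11, chr1:185045526-185102603, plus strand) had 275, 266 and 209 counts in CBX8 KO replicates 1 to 3 and 187, 238 and 228 upon re-expression. The conditions overlapped, since CBX8 KO replicate 3 lay below re-expression replicate 2. In CPM, which scales counts by library size and TMM factor, the mean was 31.0 ± 4.01 CPM (SD, n = 3) in CBX8 KO and 25.4 ± 2.99 CPM (SD, n = 3) upon re-expression. The log2 fold change was -0.29 (standard error, SE, 0.11, 95% interval -0.50 to -0.07), which did not pass after adjustment (edgeR adjusted p = 0.076). It passed with no filter on low counts (adjusted p = 0.032) and without CBX8 KO replicate 3 (adjusted p = 0.022), in a range from 0.022 to 0.30 over all alternatives.

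RING1 (ENSG00000204227.5, chr6:33208500-33212722, plus strand) was listed at 0 in all 6 libraries. A count of 0 allows up to 3 counts in a library, or 0.342 to 0.383 CPM, but this limit holds only for reads that could be assigned to the symbol. The zeros run over the whole neighbourhood. RXRB, SLC39A7, HSD17B8, VPS52, RPS18, WDR46 and PFDN6, which flank RING1, were each at 0 in every library, and each has 100% of its exon windows on alternate contigs. RPS18 encodes a protein of the small ribosomal subunit that growing cells need, so zeros in this region cannot be read as absence of RNA. Across the table, 322 of 451 protein-coding genes with every window on an alternate contig had 0 counts in all libraries (71.4%), compared with 3236 of 17675 (18.3%) where no window was. These classes were not matched for the kind of gene or its expression, and the cause of the zeros was not tested. With RING1 listed at 0, the balance of RING1 to RNF2 was not computed.

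The PCGF subunits of canonical PRC1 are BMI1 and PCGF2. BMI1 (ENSG00000168283.14, chr10:22321099-22331484, plus strand) had 472, 453 and 426 counts in CBX8 KO and 485, 448 and 475 upon re-expression. The conditions overlapped, at 56.0 ± 3.14 and 54.9 ± 3.24 CPM (SD, n = 3 each). The log2 fold change of -0.03 (SE 0.07, edgeR adjusted p = 0.85) had a 95% interval from -0.17 to 0.11, and its sign turned with library size scaling alone (0.03). The readthrough gene COMMD3-BMI1, which shares exons with BMI1 on the same strand, was listed at 0 in all 6 libraries, so adding it to BMI1 changes no count. The pseudogenes BMI1P1 and RNF2P1 were at 0 as well, and PHC1P1 had 1 to 15 counts.

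PCGF2 (ENSG00000277258.5, chr17:38733898-38749817, minus strand) had 120, 4 and 2 counts in CBX8 KO and 1, 148 and 34 upon re-expression. Each condition held at least 1 library with nearly no counts and a library with over 100, and the conditions overlapped. The log2 fold change of 0.44 (SE 0.71, edgeR adjusted p = 0.76) had a 95% interval from -1.03 to 1.91. It was 4.21 (adjusted p = 0.022) without CBX8 KO replicate 1, -0.12 without replicate 2, -0.11 without replicate 3 and -1.33 without re-expression replicate 2. Single libraries thus set its direction.

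Of 8 neighbours of PCGF2 whose windows all recur on an alternate contig, PSMB3, MLLT6 and PIP4K2B scattered between libraries of the same condition. SRCIN1, EPOP, CISD3 and CWC25 had at most 6 counts, and C17orf98 was at 0 in every library. PSMB3, a subunit of the proteasome core, had 2, 568 and 40 counts in CBX8 KO and 281, 11 and 299 upon re-expression. It was high where PCGF2 was low in CBX8 KO replicate 2 and re-expression replicate 1. The reverse held in CBX8 KO replicate 1 and re-expression replicate 2. The replicates numbered 3 did not follow this, with PSMB3 at 40 and PCGF2 at 2 in CBX8 KO, and 299 and 34 upon re-expression. MLLT6 had 5, 2 and 76 counts in CBX8 KO and 3, 24 and 57 upon re-expression. RPL23 and LASP1, farther along the chromosome, have no window on an alternate contig and held 4956 to 5806 and 5678 to 7590 counts. CSNK2B, a casein kinase subunit of variant PRC1 with 100% of its windows on alternate contigs, showed the same kind of scatter, with 152, 2 and 9 counts in CBX8 KO and 6, 1 and 82 upon re-expression.

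**Figure D3:**
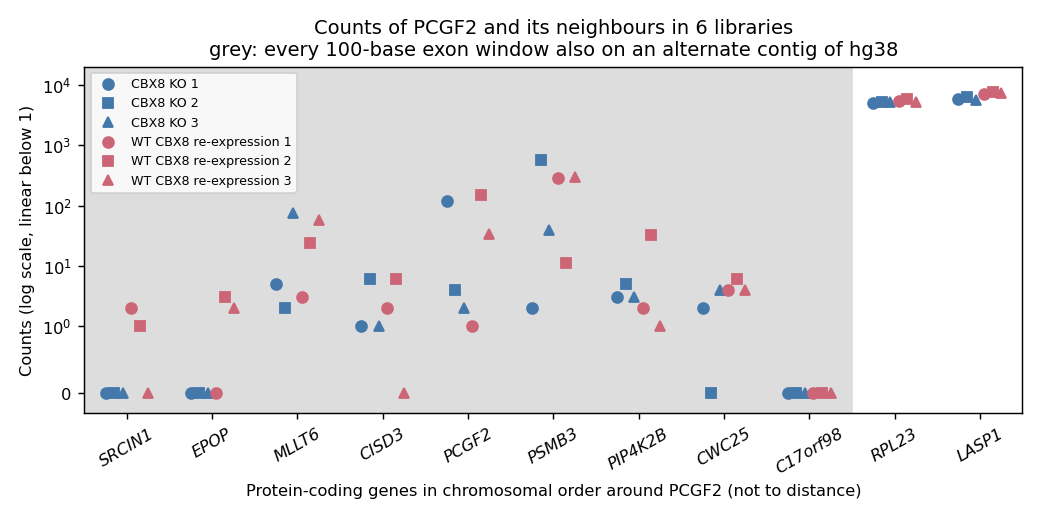
Counts in each library (y axis, log scale that is linear below 1) of PCGF2 and 10 protein-coding neighbours in chromosomal order, CBX8 KO in blue and WT CBX8 re-expression in red. On the grey ground, where every exon window recurs on an alternate contig, PCGF2 (1 to 148), PSMB3, MLLT6 and PIP4K2B scatter between libraries of the same condition and the other 5 genes lie between 0 and 6, while RPL23 and LASP1 lie at 4956 or higher.

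Of the PCGF subunits of variant complexes, PCGF3 and PCGF5 varied little between libraries. PCGF3 (ENSG00000185619.19, chr4:705748-770089, plus strand) had 603, 628 and 640 counts in CBX8 KO and 613, 634 and 637 upon re-expression, at -0.08 on the log2 scale (SE 0.06, 95% interval -0.20 to 0.04, edgeR adjusted p = 0.45). PCGF5 (ENSG00000180628.15, chr10:91163012-91284337, plus strand) had 541, 608 and 555 counts in CBX8 KO and 546, 579 and 579 upon re-expression. Its log2 fold change was -0.09 (SE 0.06, 95% interval -0.21 to 0.04, edgeR adjusted p = 0.40). Both genes work in complexes of the same type, and for both the conditions overlapped and the intervals leave room for a fall of at most 0.21 on the log2 scale. Antisense transcripts of PCGF3 overlap its exons.

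PCGF6 (ENSG00000156374.16, chr10:103302796-103351144, minus strand), which joins MGA and E2F6 in a variant complex, had 107, 113 and 112 counts in CBX8 KO and 145, 108 and 99 upon re-expression. Re-expression replicate 1 was the highest of all 6 libraries and replicate 3 the lowest. The log2 fold change was -0.0031 (95% interval -0.27 to 0.27, edgeR adjusted p = 0.99), the widest interval after PCGF2, and its sign turned with upper quartile scaling and with library size alone. PCGF1, the remaining PCGF protein and not among the 10, had 11.0 ± 1.51 and 11.1 ± 1.19 CPM (SD, n = 3 each).

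The PHC subunits of canonical PRC1 included the only gene that passed. PHC2 (ENSG00000134686.21, chr1:33323623-33431095, minus strand) had 796, 902 and 858 counts in CBX8 KO and 808, 802 and 769 upon re-expression. Raw counts of the conditions overlapped. In CPM every re-expression library was below every CBX8 KO library, and the mean was 106 ± 4.82 in CBX8 KO and 92.7 ± 1.95 upon re-expression (SD, n = 3 each). PHC2 fell by 12.4%, a log2 fold change of -0.19 (SE 0.06, 95% interval -0.30 to -0.08, edgeR adjusted p = 0.020). The call was lost with library size scaling (adjusted p = 0.12) and with DESeq2 (0.068). It was also lost without CBX8 KO replicate 2 (0.088), CBX8 KO replicate 3 (0.076), re-expression replicate 2 (0.10) or re-expression replicate 3 (0.056), with values from 0.011 to 0.12 over all alternatives.

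PHC1 (ENSG00000111752.11, chr12:8913896-8941467, plus strand) had 379, 444 and 429 counts in CBX8 KO and 383, 411 and 401 upon re-expression. Raw counts of the conditions overlapped. In CPM the conditions did not overlap, at 51.8 ± 3.62 and 46.6 ± 1.40 (SD, n = 3 each). The gap was narrow, with 47.8 in CBX8 KO replicate 1 and 47.7 in re-expression replicate 3. The log2 fold change was -0.15 (SE 0.07, 95% interval -0.30 to -0.0055) and did not pass after adjustment (edgeR adjusted p = 0.18). M6PR lies on the other strand over exons of PHC1, with 1030 to 1179 counts, and the strand setting of the counting is not given in the sources used here.

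PHC3 (ENSG00000173889.16, chr3:170086732-170181749, minus strand) had 736, 741 and 769 counts in CBX8 KO and 763, 895 and 978 upon re-expression. Re-expression replicates 2 and 3 were above every CBX8 KO library, but replicate 1 was below CBX8 KO replicate 3. Its log2 fold change of 0.14 (SE 0.07, 95% interval -0.0024 to 0.29) did not pass (edgeR adjusted p = 0.21), and it passed without re-expression replicate 1 (0.23, adjusted p = 0.023). Without re-expression replicate 3 it was 0.04 (adjusted p = 0.77). PHC1, PHC2 and PHC3 can fill the same position in PRC1. The estimate for PHC3 lay above 0 and those for PHC1 and PHC2 below it, and PHC2 alone passed the test.

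Per-length levels allow the genes to be ordered against each other. They are given in TPM, each count divided by the length of the canonical transcript and scaled to the same total in every library. PHC2 was the highest, from 53.1 to 60.3 TPM over the 6 libraries, and overlapped no other member. TPM carries no TMM factor, and on this scale the conditions overlapped for PHC2, with 54.1 in CBX8 KO replicate 1 and 56.3 in re-expression replicate 1. They also overlapped for PHC1, with 19.1 in CBX8 KO replicate 1 and 19.8 in re-expression replicate 1. BMI1 (33.5 to 38.1) and PCGF3 (32.3 to 35.4) came next and overlapped each other. PCGF5 (20.5 to 22.4), PHC1 (19.1 to 22.3), RNF2 (15.3 to 21.9) and PHC3 (15.4 to 21.3) formed a run in which each overlapped its neighbour. PCGF6, at 12.2 to 18.0, overlapped PHC3, and PCGF2, at 0.106 to 14.9, overlapped PCGF6. PHC2 and PHC3 had similar counts, but the canonical PHC3 transcript has 12652 bases and that of PHC2 has 3993, so PHC2 was higher per length. With the longest transcript of each gene in place of the canonical one, the order of the 9 genes with counts stayed as it was.

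The share of each gene in the summed per-length level of its class describes the mix of RNAs for subunits that can fill the same position. It is a share of RNA and not of protein, and the PCGF class leaves out PCGF1. Within the PHC class, PHC3 took 17.7, 16.0 and 17.1% in CBX8 KO and 18.1, 20.3 and 22.5% upon re-expression. All 3 re-expression libraries were above all 3 CBX8 KO libraries, though replicate 1 by little, and the means were 16.9 ± 0.901% and 20.3 ± 2.19% (SD, n = 3 each). The two-sided exact permutation test gave p = 0.1, the smallest that 3 against 3 libraries allow, and 0.8 adjusted over the 8 shares compared. The share of PHC2 was 61.0 ± 0.562% in CBX8 KO and 58.1 ± 2.37% upon re-expression, with overlap (exact permutation p = 0.2), and that of PHC1 was 22.1 ± 0.567% and 21.6 ± 0.314% (exact permutation p = 0.3). The ratio of PHC3 to PHC2 counts was 0.925, 0.822 and 0.896 in CBX8 KO and 0.944, 1.12 and 1.27 upon re-expression, highest in re-expression replicate 3.

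Within the PCGF members, BMI1 took 32.2 ± 0.638% in CBX8 KO and 32.3 ± 2.93% upon re-expression (SD, n = 3 each), and PCGF3 31.3 ± 2.77% and 30.2 ± 1.48%. PCGF5 took 20.2 ± 2.00% and 19.3 ± 0.928%, and PCGF6 12.6 ± 1.06% and 12.8 ± 2.97%. The conditions overlapped for all of these, with exact permutation p-values from 0.6 to 1, and PCGF2, which enters the same sum, ran from 0.095% to 12.9%. With PCGF2 left out of the class, the difference between conditions was 0.58 percentage points for BMI1, -0.53 for PCGF3, -0.47 for PCGF5 and 0.42 for PCGF6.

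**Figure D4:**
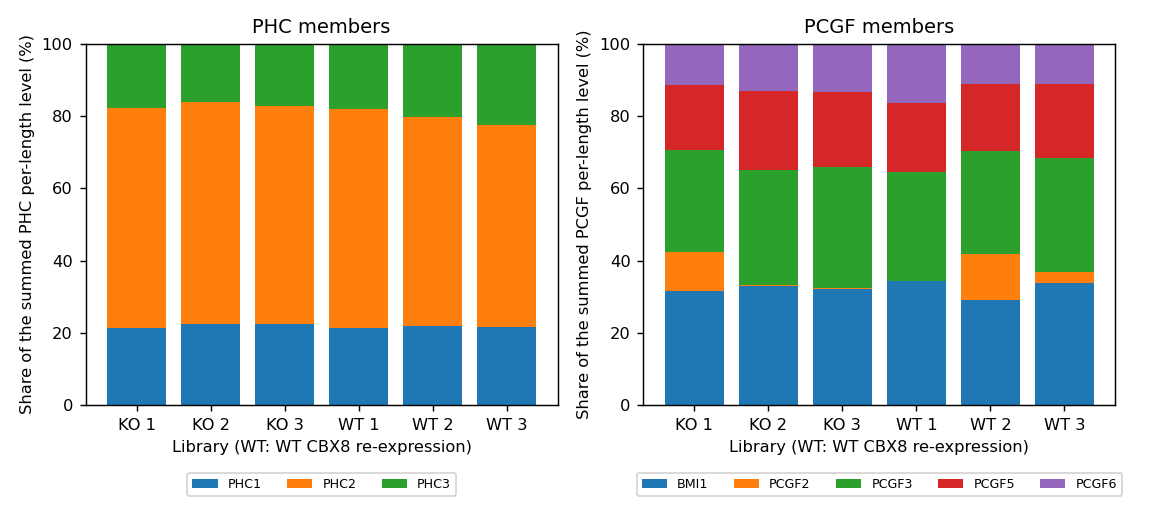
Share of each subunit in the summed per-length level of its class (y axis, %), for the PHC members (left) and the PCGF members (right), in 3 CBX8 KO and 3 WT CBX8 re-expression libraries. PHC3 reaches 22.5% in re-expression replicate 3 against at most 17.7% in CBX8 KO, and PCGF2 appears mainly in CBX8 KO replicate 1 and re-expression replicate 2.

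By their pattern over the 6 libraries, the genes nearest to PHC2 among 13579 compared were MRTO4, IFRD1 and TUFM. The Euclidean distance of their centred log2 CPM to that of PHC2 was 0.023, 0.058 and 0.063, and their log2 fold changes were -0.18, -0.20 and -0.16. The pattern over the 6 libraries holds the difference between conditions, so log2 fold changes close to that of PHC2 follow from the choice. Distances this small over 6 libraries are a description and were not tested.

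Other genes of the pathway were taken from 3 lists. Among the 6 partners of canonical PRC1 reported here, CBX6 was lower, 5 did not pass, and the median log2 fold change was -0.09. Over all genes tested, 6.63% were lower and 12.9% passed in either direction, and 1 of 6 is near the latter share. The list leaves out 1 gene that is not reported here and was dropped after the values were seen. CBX6 is an alternative to CBX8 as the chromodomain subunit. CBX6 went from 202 ± 9.05 to 179 ± 11.2 CPM, a log2 fold change of -0.17 (SE 0.05, edgeR adjusted p = 0.030), which was lost with library size scaling (0.15), with the replicate number as a block (0.065) and in 3 fits that left out a library, at most 0.13 without CBX8 KO replicate 3. The next lowest in adjusted p were SCML1, at -0.11 on the log2 scale (edgeR adjusted p = 0.29), and CBX7, another chromodomain subunit, at 0.16 (edgeR adjusted p = 0.45).

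Of 25 partners of variant PRC1, 24 were tested, 2 were higher, 2 lower and 20 did not pass, with a median log2 fold change of -0.07. These 4 of 24 stand beside 12.9% of all genes tested, and the share is near that background. MGA, the DNA-binding scaffold of the PCGF6 complex, rose from 30.8 ± 1.81 to 41.0 ± 3.47 CPM (SD, n = 3 each) or, as log2 fold change, 0.41 (SE 0.09, edgeR adjusted p = 0.0017). It kept its call under every alternative, with adjusted p-values from 0.00024 to 0.015, while PCGF6 itself had a log2 fold change of -0.0031. BCORL1, a scaffold of the PCGF1 complex, rose by 0.38 on the log2 scale (SE 0.11, edgeR adjusted p = 0.020) and lost its call with DESeq2 (0.14) and without CBX8 KO replicate 1 (0.091), CBX8 KO replicate 2 (0.080) or re-expression replicate 3 (0.13). AUTS2, a partner of PCGF3 and PCGF5, had a log2 fold change of -0.23 (SE 0.07, edgeR adjusted p = 0.040), and CBX3, the HP1 gamma protein found with PCGF6, one of -0.14 (SE 0.05, edgeR adjusted p = 0.047). AUTS2 lost its call in 8 and CBX3 in 9 of 17 alternatives, with adjusted p-values up to 0.16 and 0.25.

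Of 9 genes for H2AK119 deubiquitinases and their cofactors, which remove the mark that RING1 and RNF2 place, 8 were tested, 1 was higher, 0 were lower and 7 did not pass, beside 12.9% of all genes tested that passed in either direction. FOXK1, which brings the BAP1 complex to chromatin, rose from 31.6 ± 1.70 to 41.8 ± 3.30 CPM (SD, n = 3 each) or, as log2 fold change, 0.40 (SE 0.09, edgeR adjusted p = 0.0019), and kept its call under every alternative, from 0.00039 to 0.018. BAP1, the catalytic subunit, had a log2 fold change of -0.07 (edgeR adjusted p = 0.46), and ASXL2, its activating partner, one of 0.08 (edgeR adjusted p = 0.49).

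**Figure D5:**
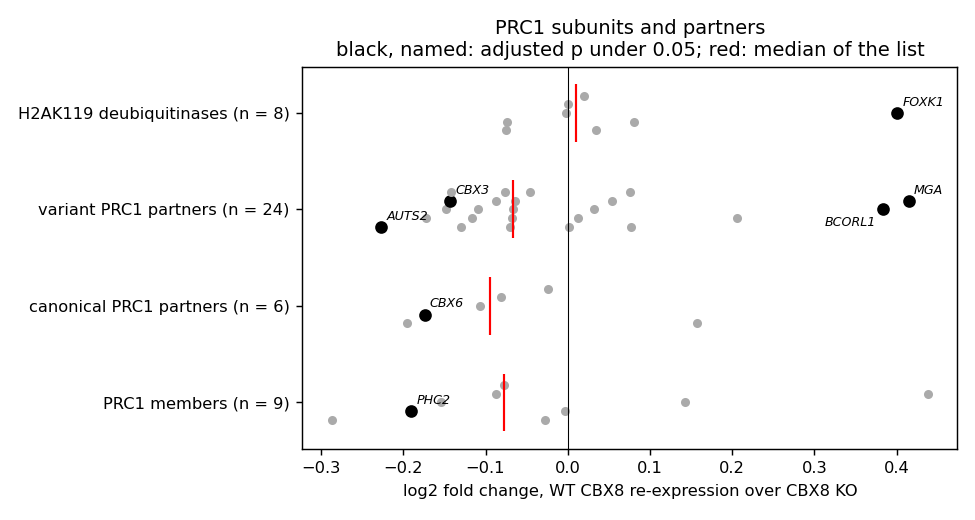
Log2 fold change (x axis), WT CBX8 re-expression over CBX8 KO, of the tested PRC1 members and of 3 lists of partner genes, 1 point per gene, with genes past an adjusted p of 0.05 in black and named, and list medians in red. Medians lie between -0.09 and 0.01, and MGA, BCORL1 and FOXK1 are the called genes near 0.4.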

How the data were processed

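The file the authors deposited holds raw, unnormalized counts by gene symbol for 6 libraries. Poly(A) RNA had been sequenced as 100 bp paired-end reads, which the authors checked with FastQC, trimmed with Trimmomatic and aligned to hg38 with HiSat2. Tool versions, the counter, the annotation used and strandedness are not given in the sources used here. In R 4.3.3, genes kept by filterByExpr of edgeR 4.0.16 (14461) were scaled by TMM and tested by glmQLFit and glmQLFTest with condition as the only term, with Benjamini-Hochberg adjustment over all genes and a threshold of 0.05. CPM were scaled by library size times TMM factor. Each SE was the size of the log2 fold change over the root of F, and 95% intervals took the moderated degrees of freedom. The test was checked on counts simulated with the dispersions fitted to these data, which cannot show whether the data follow that model. TPM were computed from counts and canonical transcript lengths of GENCODE release 44, to which 36501 symbols matched by name. Exon windows were matched exactly to every contig of hg38, of which 261 are alternate contigs. Alternatives used DESeq2 1.42.0, without edgeR's filter on low counts, and limma 3.58.1. Limits that a count of 0 allows cover counting error only.

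The 10 members, the lists and the tests were chosen with earlier results of these data known. The list of canonical partners is given without 1 gene that is not reported here, left out after the values were seen. The text names the members, CBX8, list genes past the threshold (or the lowest adjusted p up to 3), overlapping genes and the 3 genes nearest in pattern; PSMB3, MLLT6, CSNK2B and the genes flanking RING1 were named after their values were seen. Libraries of a condition differed by more than sampling noise (chi-square per degree of freedom from 2.03 to 3.07), and all 6 were kept. Shares were adjusted over 8 values, since the RING class had RING1 at 0. Further alternatives were scaling by upper quartile, by RLE or by library size alone, limma voom, the exact test and newer quasi-likelihood of edgeR, other filters, the replicate number as a block, leaving out each library, and, chosen after seeing the data, leaving out genes repeated on alternate contigs and PCGF2 from its class.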

Additional observations from a re-analysis of the deposited data

How the results depend on the processing

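The number of members called was 1 lower and 0 higher. It was 0 lower with library size only and with DESeq2, and 2 lower with no filter, and across the fits that left out 1 library it ranged from 0 to 1 lower and from 0 to 1 higher. For canonical partners, 1 lower became 0 with library size only and with the replicate block, and leaving out 1 library gave 0 to 1 lower. For variant partners, 2 lower became 0 with upper quartile scaling, library size only and the replicate block and 1 with DESeq2, and 2 higher became 1 with DESeq2; leaving out 1 library gave 0 to 1 lower and 1 to 3 higher. The deubiquitinase list did not change. The cause was not tested. Library size scaling moved the median of all genes by 0.06 on the log2 scale and gave 592 genes lower and 1400 higher, against 959 and 901. DESeq2 gave 674 and 419 among 28008 genes, since it was run without edgeR's filter on low counts, so test and filter changed together. Leaving out re-expression replicate 2 gave 635 and 593. Deviations of same-numbered libraries correlated at -0.14, -0.086 and -0.067 over 12018 genes, so no pairing by replicate number was seen. With 3 libraries a condition these values cannot decide whether same-numbered libraries shared a culture or a day. With the number as a replicate block, 766 genes were lower and 739 higher, and PHC2 had a log2 fold change of -0.19 (edgeR adjusted p = 0.0496).

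Sign changes concern values that did not pass. BMI1 was 0.0281 with library size only, 0.0174 without CBX8 KO replicate 1 and 0.0215 without re-expression replicate 2, in a range from -0.058 to 0.0215 with 1 library left out. PCGF6 was 0.0094 with upper quartile scaling and 0.0529 with library size only, and from -0.19 to 0.0908 with 1 library left out. PCGF2 ran from -1.33 to 4.21. With 1 library left out, the difference in share ranged from -0.876 to 1.79 percentage points for BMI1, -2.13 to 5.10 for PCGF2, -2.61 to 0.110 for PCGF3, -1.95 to 0.0026 for PCGF5 and -1.48 to 1.11 for PCGF6, while PHC1 (-0.822 to -0.319), PHC2 (-4.12 to -1.77) and PHC3 (2.26 to 4.45) kept their signs. From raw counts in place of per-length levels, the differences were -1.40 for PHC1, -3.80 for PHC2 and 5.205 for PHC3, against -0.495, -2.85 and 3.35.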
